A study of Mus musculus with 12 samples.

Results

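Galk1 and 4 other genes of the galactose pathway were followed in RNA from mouse embryonic stem cells with Pcbp1 knocked out and from control cells. Pcbp1 encodes an RNA-binding protein of the poly(C)-binding family. The genes were taken by symbol from a table of 55487 genes, and 5 of 5 were found and passed the filter on low counts: Galk1, Galk2, Galt, Galm and Ugp2. The cells were of the line E14 Tg2a. The KO groups came from 3 clones with Pcbp1 knocked out, each derived on its own, and the WT groups from 3 control clones, which the series text calls Scr and the sample labels WT. Each clone was grown in the naive state, in serum-free N2B27 medium with LIF, 1 µM of the MEK inhibitor PD0325901 and 3 µM of the GSK3β inhibitor CHIR99021. Each was also taken to epiblast-like cells (EpiLCs) by 48 h on fibronectin with 12 ng/ml bFGF, 20 ng/ml activin A and 1% KOSR. The 12 libraries of polyadenylated RNA thus form 4 groups of 3: naive KO, naive WT, EpiLC KO and EpiLC WT.

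The enzymes of this pathway, named after Leloir, turn galactose into activated sugars. GALM, galactose mutarotase, converts the beta form of galactose into the alpha form, which GALK1, galactokinase, phosphorylates to galactose-1-phosphate. GALT exchanges that phosphate sugar with UDP-glucose, which gives UDP-galactose and glucose-1-phosphate. UGP2 makes UDP-glucose from glucose-1-phosphate and UTP, and GALK2 is a related kinase that acts on N-acetylgalactosamine. UDP-galactose and UDP-glucose are the sugar donors of glycoproteins, glycolipids and proteoglycans, and UDP-glucose also feeds glycogen. In humans, loss of GALT or GALK1 causes forms of galactosemia.

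Galk1 was selected on its measured level in EpiLCs, which was lower in KO than in WT cells. Its values in EpiLCs, and every comparison that uses them, are therefore given as a description with no test. Its comparison in naive cells sets other libraries, of the same clones, against each other and was tested. The spread in that test was estimated over all 12 libraries, the EpiLC ones among them. A fit of the naive groups alone is among the alternative fits, over which the adjusted p was at most 0.000567 (edgeR or DESeq2). The other 4 genes were taken for their place in the pathway and were tested in each comparison.

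Galk1 (ENSMUSG00000020766.4) lies on chromosome 11 of GRCm38, 116008457 to 116012719, on the minus strand. Galt (ENSMUSG00000036073.17) lies on chromosome 4, 41755228 to 41758695, on the plus strand. Both were lower in KO cells in each culture condition, as given below, so the 250 bases before their starts are shown, from RefSeq on GRCm38.p6, 5′ to 3′ on the strand of the gene. Capitals mark CACGTG, the E-box bound by many basic helix-loop-helix factors. The Galk1 stretch is chr11:116012720-116012969 (minus strand) and the Galt stretch chr4:41755267-41755516 (plus strand).
Galk1: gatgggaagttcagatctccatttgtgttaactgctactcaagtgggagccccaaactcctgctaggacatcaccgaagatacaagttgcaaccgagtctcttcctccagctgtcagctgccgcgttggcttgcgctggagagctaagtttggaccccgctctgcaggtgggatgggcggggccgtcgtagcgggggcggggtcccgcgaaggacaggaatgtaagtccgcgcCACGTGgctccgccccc
Galt: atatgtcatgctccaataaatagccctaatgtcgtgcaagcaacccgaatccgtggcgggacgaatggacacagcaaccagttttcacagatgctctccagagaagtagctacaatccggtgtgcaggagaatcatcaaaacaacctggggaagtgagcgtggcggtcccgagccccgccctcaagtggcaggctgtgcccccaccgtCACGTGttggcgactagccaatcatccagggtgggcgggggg
In Galk1 the CACGTG stood 17 to 12 bases before the start, and in Galt 42 to 37 bases before it. A CACGTG was found in 6.02% of the 32851 windows of this length in the RefSeq table, which covers 27025 genes. The table held 7 such windows for 4 of the 5 genes, and the windows of Galk2 and Ugp2, and the other window of Galt, had no CACGTG. The GC box GGGCGG, searched on both strands, stood 3 times before Galk1 and 2 times before Galt, with no overlap with the E-box, and was in 32.7% of all windows. The letters TGATGNAA, a part of the site of ATF4 with C/EBP factors, were in 3.45% of all windows and in none of the 7. These motifs were chosen after the sequences were seen, and a match or its absence says nothing on which factor binds. The Galt stretch lies inside the gene as the count table bounds it, since RefSeq places that start further along.

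Total counts were 27146744 to 42204511 per library, and the 5 genes had 318 to 8571 counts in each. Levels are given as CPM, counts scaled to library size after TMM normalisation. Pcbp1 itself was measured at 295.3, 302.5 and 302.9 CPM in naive KO cells, against 475.4, 417.9 and 474 CPM in naive WT cells. In EpiLCs it was at 250.3, 301.8 and 264.9 CPM in KO, against 692.1, 511.9 and 591.5 CPM in WT. All KO libraries were below all WT libraries of their condition, at 65.9% of WT in naive cells and 45.5% in EpiLCs, and the labels give no position of the edit. The summed level of 8 markers of naive pluripotency was 140 to 281 CPM in EpiLC KO and 163 to 624 CPM in EpiLC WT, against 3630 to 3890 CPM in naive KO and 3890 to 3940 CPM in naive WT. The 6 formative markers summed to 2620 to 2690 CPM in EpiLC KO and 2280 to 3860 CPM in EpiLC WT, against 123 to 232 CPM in naive KO and 103 to 186 CPM in naive WT. Markers of other cells also differed between genotypes. In EpiLCs the 7 endoderm markers summed to 26.7 to 36 CPM in KO and 2.49 to 9.75 CPM in WT, the 5 of primitive streak and mesoderm to 13.5 to 20.1 CPM in KO and 5.72 to 10.3 CPM in WT, the 3 of neuroectoderm to 18.9 to 32.1 CPM in KO and 5.94 to 9.78 CPM in WT, and the 5 of fibroblasts and feeders to 14.3 to 19.2 CPM in KO and 4.15 to 11.6 CPM in WT. All of these sums were higher in every KO library, as was that of the 4 core pluripotency genes (1110 to 1260 CPM in KO and 872 to 1080 CPM in WT). The sums of the 4 trophoblast markers overlapped (2.92 to 3.36 CPM in KO and 1.06 to 6.35 CPM in WT). As single genes in EpiLCs, 7 of 7 tested endoderm markers were called as risen, where 7.22% of all genes were. For streak and mesoderm this was 1 of 4 tested, for neuroectoderm 1 of 3 and for core pluripotency 0 of 4. For fibroblasts and feeders it was 0 of 3, with log2 fold changes of -0.57 to 1.95. In naive cells the fibroblast and feeder markers summed to 4.24 to 8.27 CPM in KO and 2.89 to 3.59 CPM in WT, which do not overlap. Of the 3 tested, only Col1a1 had a positive log2 fold change (1.58) and was called as risen. The median of the 3 was -1.03 and the lowest -1.49. Col1a2, Col3a1 and Postn were under 0.5 CPM in both genotypes, and Thy1 in KO only. The neuroectoderm markers summed to 5.84 to 13.1 CPM in naive KO and 2.53 to 6.12 CPM in naive WT, with Neurod1 called as risen, and Kdr was called as fallen. The naive sums of the endoderm, streak and mesoderm, and trophoblast markers overlapped between genotypes. The part of these in the values of the 5 genes was not tested.

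Galk1 was the gene of the 5 with the widest gap between genotypes. In naive cells it was at 12.5, 11.5 and 9.78 CPM in KO, against 86.8, 75.2 and 62.5 CPM in WT. The groups did not overlap, and the highest KO library was far below the lowest WT library. KO cells averaged 11.2 ± 1.36 CPM and WT cells 74.9 ± 12.1 CPM (SD, n = 3 each), so that KO held 15.0% of the WT level, which is 6.66-fold lower. The log2 fold change was -2.73 ± 0.173 (SE, 95% interval -3.11 to -2.36, edgeR quasi-likelihood adjusted p = 6.64e-06 over 18134 genes). Galk1 had the 3rd smallest p of all genes tested in naive cells and the 81st lowest log2 fold change. In bulk RNA, fewer cells that express a gene and less RNA per cell cannot be told apart.

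In EpiLCs, the condition it was selected on, Galk1 was at 30.4, 28.9 and 28.4 CPM in KO, against 230.3, 150.4 and 169.6 CPM in WT. The 3 KO libraries lay close together and far below the WT libraries, which spread more widely, with replicate 1 the highest. The means were 29.2 ± 1.04 CPM in KO and 183.4 ± 41.7 CPM in WT (SD, n = 3 each), and KO held 15.9% of the WT level, a log2 fold change of -2.65 ± 0.17 (SE).

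Galk1 was also higher in EpiLCs than in naive cells of either genotype. From the values above, the ratio of EpiLC to naive means was 2.60 in KO, a log2 fold change of 1.38 ± 0.167, and 2.45 in WT, a log2 fold change of 1.29 ± 0.162. Every EpiLC library was above every naive library of its genotype. The 3 EpiLC KO libraries, at 28.4 to 30.4 CPM, remained below the 3 naive WT libraries, at 62.5 to 86.8 CPM.

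**Figure D1:**
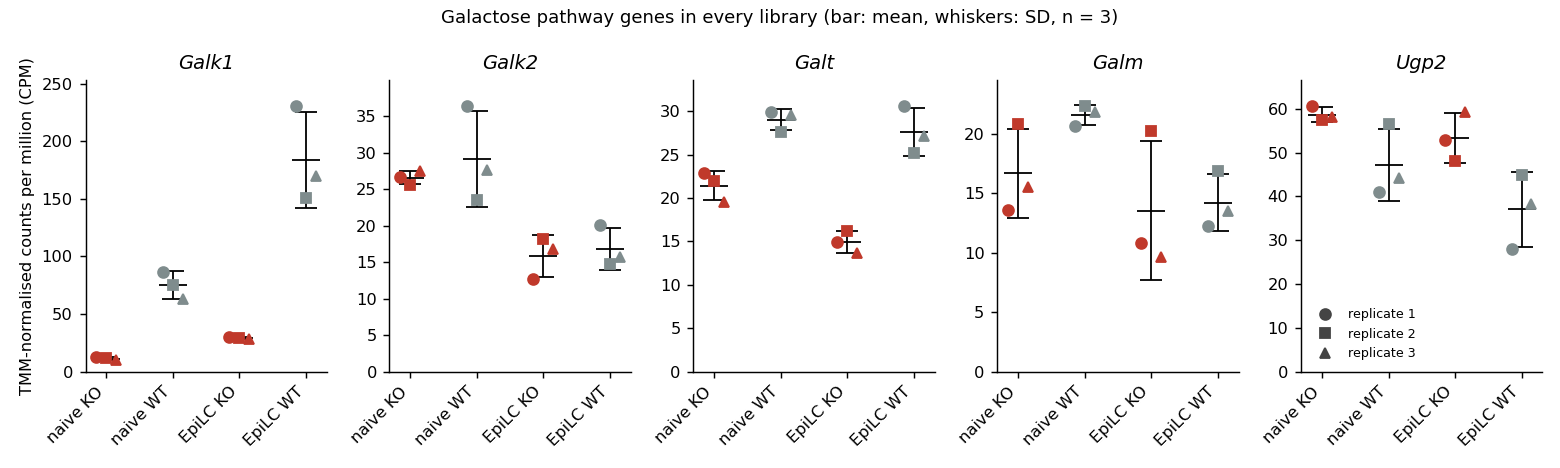
Level of each gene in the 12 libraries, in TMM-normalised CPM on the vertical axis of each panel (each panel has its own scale from 0), by group along the horizontal axis. Symbols mark the replicate number, red is KO and grey WT, and bars give the mean with whiskers of 1 SD (n = 3). Galk1 lay at 9.78 to 30.4 CPM in the 6 KO libraries and at 62.5 to 230.3 CPM in the 6 WT libraries, while Galk2 overlapped between genotypes.

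The related kinase gene Galk2 (ENSMUSG00000027207.15, chromosome 2, 125859109 to 125984299, plus strand) did not pass between genotypes. In naive cells it was at 26.6, 25.6 and 27.5 CPM in KO, against 36.4, 23.5 and 27.6 CPM in WT. The EpiLC libraries gave 12.7, 18.1 and 16.8 CPM in KO, against 20.0, 14.7 and 15.6 CPM in WT. The genotypes overlapped in both conditions, with the WT libraries more spread in naive cells. The log2 fold change of KO over WT was -0.13 ± 0.186 (95% interval -0.54 to 0.27, edgeR adjusted p = 0.72) in naive cells and -0.08 ± 0.188 (-0.49 to 0.32, adjusted p = 0.806) in EpiLCs. Both estimates change sign without 1 library, to 0.03 without naive WT replicate 1, to 0.05 without EpiLC KO replicate 1 and to 0.06 without EpiLC WT replicate 1.

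Between conditions Galk2 fell, and in this it ran against the values of Galk1. All EpiLC libraries lay below all naive libraries of their genotype. The log2 fold change of EpiLC over naive was -0.75 ± 0.188 in KO (edgeR adjusted p = 0.00455) and -0.79 ± 0.188 in WT (adjusted p = 0.00336). EpiLCs held 59.6% of the naive level in KO and 57.6% in WT.

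Galt, whose product takes up galactose-1-phosphate, was at 22.8, 21.9 and 19.5 CPM in naive KO cells, against 30.0, 27.6 and 29.6 CPM in naive WT cells. Among EpiLCs, Galt was at 14.9, 16.2 and 13.6 CPM in KO, against 30.6, 25.1 and 27.1 CPM in WT. No KO library reached a WT library in either condition. In naive cells Galt fell to 73.8% of the WT level, a log2 fold change of -0.44 ± 0.125 (edgeR adjusted p = 0.0463). Leaving out any single naive library ended that call (adjusted p between 0.0543 and 0.106), as did 4 other of 13 alternatives. In EpiLCs Galt fell to 54.1% of WT, a log2 fold change of -0.89 ± 0.126 (95% interval -1.16 to -0.61, edgeR adjusted p = 0.00102), and this call held in 13 of 13 alternatives (adjusted p at most 0.0104).

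The Galt values also differed between conditions in KO cells, where EpiLC over naive was -0.52 ± 0.126 (edgeR adjusted p = 0.00346). In WT cells it was -0.07 ± 0.125 (adjusted p = 0.649) and the libraries of the 2 conditions overlapped. The difference between these, which is also the difference between the genotype effects, was -0.45 ± 0.177 (unadjusted p = 0.0253) and did not pass over all genes (adjusted p = 0.322). Part of the exon bases of Galt is also exon of another gene, and reads there could not be assigned under the counting used, so Galt levels rest on the rest of the gene.

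Galm (ENSMUSG00000035473.10, chromosome 17, 80127471 to 80185101, plus strand), at the entry of the pathway, was at 13.6, 20.9 and 15.5 CPM in naive KO cells, against 20.7, 22.3 and 21.8 CPM in naive WT cells. Among EpiLCs, Galm was at 10.8, 20.3 and 9.60 CPM in KO, against 12.2, 16.9 and 13.5 CPM in WT. Replicate 2 of KO stood above the other KO libraries in both conditions, by 0.52 on the log2 scale in naive cells and 0.99 in EpiLCs, and made the genotypes overlap. KO over WT was -0.37 ± 0.258 (edgeR adjusted p = 0.416) in naive cells and -0.07 ± 0.26 (adjusted p = 0.896) in EpiLCs. Without KO replicate 2 in both conditions, a choice made after its values were seen, the values were -0.57 (adjusted p = 0.106) and -0.48 (adjusted p = 0.124). The EpiLC estimate is positive, at 0.07 to 0.13, without EpiLC KO replicate 1, EpiLC KO replicate 3 or EpiLC WT replicate 2.

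Replicate 2 of KO stood apart along a long stretch of chromosome 17, and Galm lies near one end of it. Among genes with a mean of at least 1 CPM, replicate 2 was compared with the mean of replicates 1 and 3 of its group, and the stretch was bounded after its profile was seen. From 38 Mb before Galm to 2 Mb after it, 199 of 223 genes were higher in replicate 2 in naive KO and 208 of 223 in EpiLC KO, with median log2 differences of 0.43 and 0.42. In the WT libraries of the same number, 118 of 223 in naive WT and 113 of 223 in EpiLC WT were higher. Closer to Galm, within 2 Mb on either side, most genes were higher in the WT libraries too. There 22 of 29 were higher in naive WT and 23 of 29 in EpiLC WT (medians 0.13 and 0.21). In naive KO and EpiLC KO it was 26 of 29 each (medians 0.66 and 0.50). Further than 2 Mb after Galm the direction turned: 37 of 38 genes were lower in replicate 2 in naive KO and 38 of 38 in EpiLC KO, with medians of -0.90 and -0.93, against 20 of 38 in naive WT and 19 of 38 in EpiLC WT. More than 38 Mb before Galm the medians were -0.07 in naive KO and -0.07 in EpiLC KO. Over all 13737 genes at this level, 50.7% were higher in replicate 2 in naive KO and 53.3% in EpiLC KO, and 49.1% in naive WT and 48.2% in EpiLC WT. None of the other 4 genes lies on chromosome 17. Leaving out KO replicate 2 in both conditions gave Galk1 -2.75 (adjusted p = 0.000567) in naive cells and -2.64 in EpiLCs.

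**Figure D2:**
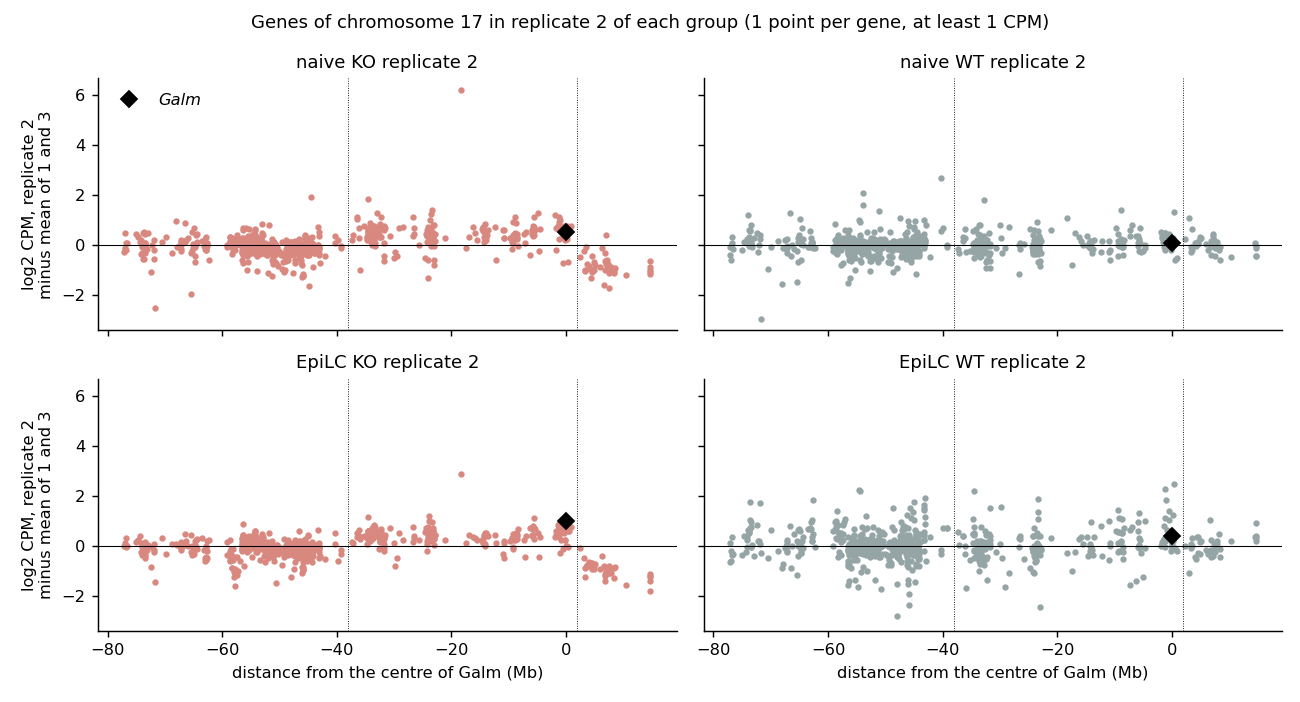
Log2 CPM in replicate 2 minus the mean of replicates 1 and 3 of the same group (vertical axis) for each gene of chromosome 17 with at least 1 CPM, by distance from the centre of Galm in Mb (horizontal axis), with 1 panel per group. The diamond is Galm and the dotted lines stand 38 Mb before and 2 Mb after it. In both KO panels the points between the lines sit mostly above 0 (medians 0.43 and 0.42) and those to the right below it (medians -0.90 and -0.93), which the WT panels do not show.

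Between conditions, Galm was lower in every EpiLC WT library than in every naive WT library, with a log2 fold change of -0.61 ± 0.26 (edgeR adjusted p = 0.0662). With the clone as a block the value was -0.62 and passed (adjusted p = 0.0072). In KO the libraries overlapped and the value was -0.30 ± 0.259 (adjusted p = 0.348). Without EpiLC KO replicate 2 it was -0.71 (adjusted p = 0.015), without naive KO replicate 2 it was -0.08 (adjusted p = 0.827), and without both it was -0.52 (adjusted p = 0.0538).

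Ugp2 (ENSMUSG00000001891.16, chromosome 11, 21321138 to 21371201, minus strand), the source of UDP-glucose, was the gene of the 5 with its KO libraries above its WT libraries. It was at 60.6, 57.4 and 58.0 CPM in naive KO cells, against 40.9, 56.5 and 44.3 CPM in naive WT cells. Its EpiLC libraries gave 52.8, 48.0 and 59.2 CPM in KO, against 28.0, 44.9 and 38.3 CPM in WT. Each KO library was above each WT library of its condition, by a narrow margin over WT replicate 2. The log2 fold change of KO over WT was 0.31 ± 0.166 (95% interval -0.05 to 0.67, edgeR adjusted p = 0.282) in naive cells and 0.53 ± 0.167 (0.17 to 0.89, adjusted p = 0.0514) in EpiLCs, and neither passed. The EpiLC value lies at the threshold: it passed in 6 of 13 alternatives, among them without EpiLC WT replicate 2 (0.69, adjusted p = 0.0165). EpiLC over naive was -0.14 ± 0.166 in KO (adjusted p = 0.507) and -0.35 ± 0.167 in WT (adjusted p = 0.0945). With the clone as a block the WT value was -0.36 and passed (adjusted p = 0.0122), and without EpiLC WT replicate 2 it was -0.52 (adjusted p = 0.0197).

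Over the 5 genes, 2 fell in naive KO cells (Galk1 and Galt) and 0 rose, where 9.23% of all genes tested were called in either direction, 4.95% as fallen and 4.27% as risen. In EpiLC KO cells, of the 4 genes other than Galk1, 1 fell (Galt) and 0 rose, where 15.1% of all genes were called, 7.86% as fallen and 7.22% as risen. Between conditions, of the same 4 genes, 2 fell in KO (Galk2 and Galt), where 55.2% of all genes were called, 28.1% as fallen and 27.1% as risen. In WT 1 fell (Galk2), where 52.7% were called, 26.3% as fallen and 26.4% as risen. With the clone as a block 3 of the 4 did (Galk2, Galm and Ugp2), while the shares given are those of the fit with no block. Over all 14 alternatives of this contrast, the clone block among them, the count of genes called ran from 8255 to 10484, beside 9553 in the main fit. A difference between the genotype effects passed for 0 of the 4 in edgeR, where 0.381% of all genes were called (0.259% in the positive and 0.121% in the negative direction). In edgeR 1 of the 4 (Galt) had an unadjusted p under 0.05. DESeq2, which called more genes for this difference, as given further below, also called 0 of the 4. With so few genes these shares say little beyond the single values.

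**Figure D3:**
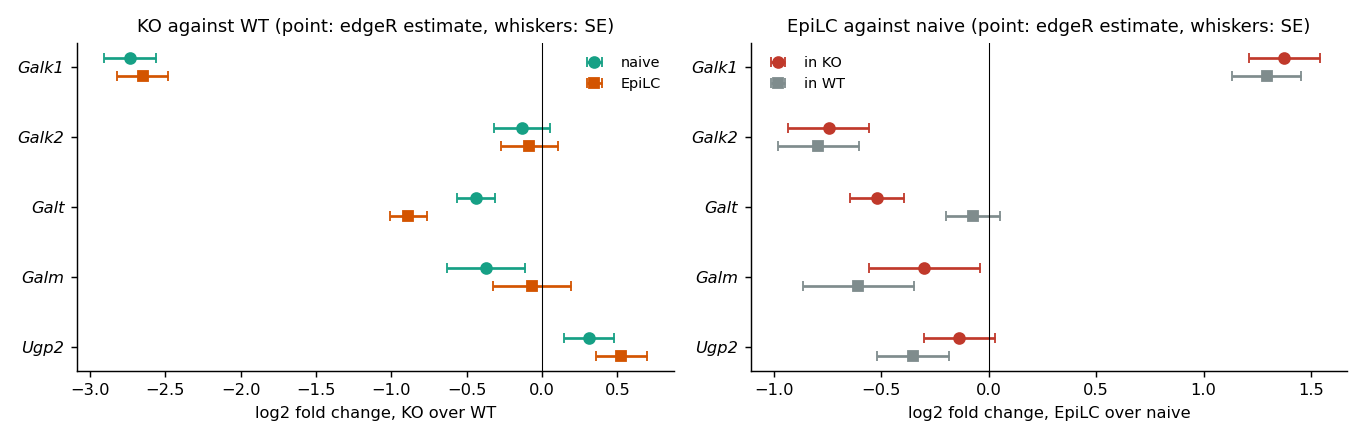
Log2 fold change of each gene from the edgeR fit, KO over WT in the left panel and EpiLC over naive in the right panel, with whiskers of 1 SE. Galk1 sits at -2.73 in naive cells and -2.65 in EpiLCs in the left panel, apart from the other 4 genes, and is the 1 gene above 0 in the right panel. The Galk1 values that use EpiLC libraries are a description.

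Levels can be set beside each other between genes once they are divided by exon length, here as RPKM, the CPM per kilobase of exon. In naive KO cells the order of the means was Ugp2 at 19.1, Galt at 8.68, Galk1 at 8.00, Galm at 6.74 and Galk2 at 4.37 RPKM. In naive WT cells it was Galk1 at 53.2, Ugp2 at 15.4, Galt at 11.8, Galm at 8.73 and Galk2 at 4.79 RPKM. The first place of Galk1 in WT was clear of the spread, at 44.5 to 61.7 RPKM against 13.3 to 18.4 RPKM for Ugp2. In naive KO its range of 6.96 to 8.88 RPKM overlapped those of Galt (7.90 to 9.25 RPKM) and Galm (5.51 to 8.43 RPKM), so these 3 have no order beyond their spread.

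In EpiLC KO cells the order was Galk1 at 20.8, Ugp2 at 17.4, Galt at 6.04, Galm at 5.48 and Galk2 at 2.60 RPKM. In EpiLC WT cells it was Galk1 at 130.5, Ugp2 at 12.1, Galt at 11.2, Galm at 5.74 and Galk2 at 2.76 RPKM. Galk1 stood above Ugp2 in every EpiLC KO library (20.2 to 21.6 against 15.6 to 19.3 RPKM), and far above it in EpiLC WT (107 to 163.8 against 9.12 to 14.6 RPKM). Galt and Galm overlapped in EpiLC KO, and Galt and Ugp2 overlapped in EpiLC WT. Galk2 had the lowest mean in all 4 groups, although its exon length of 6088 bp sums all its exons, also those that few transcripts use.

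**Figure D4:**
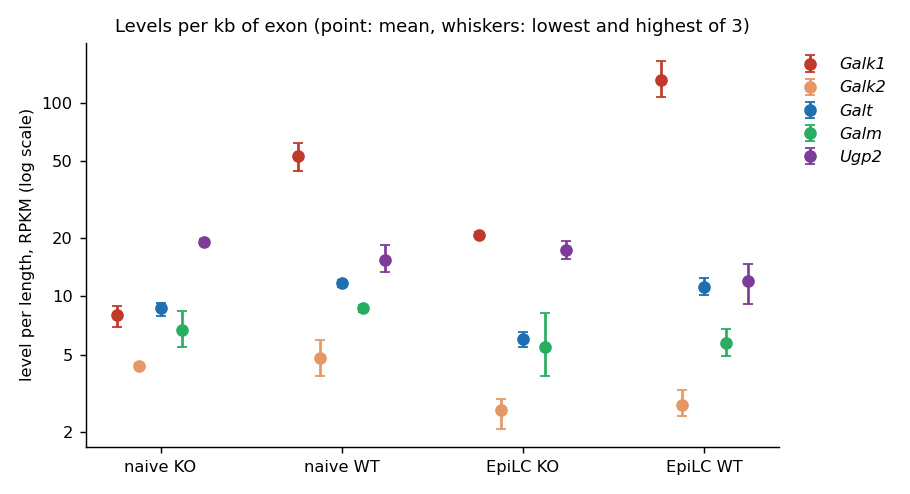
Level of the 5 genes per kilobase of exon, in RPKM on a log axis, by group. Points are means of 3 libraries and whiskers run from the lowest to the highest library. Galk1 leads in both WT groups (53.2 and 130.5 RPKM), but lies among Galt and Galm in naive KO (8.00 RPKM).

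The genes around each of the 5 were checked within 100 kb. Of the 11 neighbours of Galk1, 10 were tested, and none overlaps it. In naive KO cells 3 fell (Itgb4, Unc13d and Trim47) and 0 rose, over a range of -1.64 to 0.30 on the log2 scale with a median of -0.09, where 4.95% of all genes were called as fallen. In EpiLC KO cells 3 fell (Itgb4, Unc13d and Wbp2) and 0 rose, over -1.58 to 0.37 with a median of -0.28, where 7.86% of all genes were called as fallen. Unc13d and Trim47 were at low levels, with means over the 12 libraries of 1.71 and 1.05 CPM, beside 9.19 CPM for Itgb4 and 144 CPM for Wbp2. Itgb4, the integrin beta 4 gene, ends at 116008412, just beyond the end of Galk1 on the other strand, and changed by -0.84 (adjusted p = 0.0243) and -0.99 (adjusted p = 0.00983). No neighbour had a log2 fold change as low as that of Galk1. Of these calls, that of Itgb4 in EpiLCs and that of Wbp2 held in all alternatives. Without at least 1 library the adjusted p of the naive calls of Itgb4, Unc13d and Trim47 went up to 0.101, 0.0923 and 0.181, in each case without naive KO replicate 1, and that of Unc13d in EpiLCs up to 0.0776, without EpiLC KO replicate 3.

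Around the other 4 genes, edgeR called 0 neighbours in naive cells among 3 tested for Galk2, 7 for Galt, 5 for Galm and 1 for Ugp2. At an unadjusted p under 0.05 there were 2 by Galt and 0 by the others, and DESeq2 called 2 by Galt and 0 by the others. In EpiLC KO cells 1 neighbour each rose by Galk2 (Secisbp2l, 0.48, adjusted p = 0.0376), Galt (Cntfr, 1.43, adjusted p = 0.0204) and Galm (Hnrnpll, 0.45, adjusted p = 0.019). Without 1 library these adjusted p went up to 0.129 (without EpiLC WT replicate 3), 0.0781 and 0.075 (both without EpiLC KO replicate 2). Galk2 shares 31 exon bp with Cops2, which encodes a COP9 signalosome subunit, and 283 with Fam227b. Ugp2 shares 78 with Gm12043 and holds the gene of the microRNA Mir1933, and Galt lies within the body of Il11ra1 with no shared exon.

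The 6 genes whose level was most like that of Galk1 over the 12 libraries, by the Pearson correlation of log2 CPM among 10094 genes with a mean of at least 5 CPM, were Sbds (r = 0.983), Bak1 (0.981), Arhgef15 (0.971), Prkaca (0.967), Slbp (0.967) and Kifc2 (0.964). These values are a description: the libraries share 4 groups, and over deviations from the group means the same correlations were 0.209, 0.53, -0.02, 0.425, 0.385 and 0.853. Sbds, which acts in ribosome maturation, averaged 50.9 ± 2.61 CPM in naive KO and 86.3 ± 1.02 CPM in naive WT, and 63.2 ± 2.70 CPM in EpiLC KO and 112.9 ± 9.36 CPM in EpiLC WT (SD, n = 3 each). Arhgef15, a guanine nucleotide exchange factor, had wider gaps, at 1.29 ± 0.31 CPM in naive KO and 7.21 ± 0.973 CPM in naive WT, and 3.92 ± 0.804 CPM in EpiLC KO and 13.8 ± 1.12 CPM in EpiLC WT. Of the other pathway genes, Galt correlated with Galk1 at 0.598, Galm at 0.00, Galk2 at -0.27 and Ugp2 at -0.83. Over deviations from the group means these were 0.677 for Galt, -0.28 for Galm, 0.472 for Galk2 and -0.59 for Ugp2. Galk2 thus changed sign, as did Galm, whose first value was barely above 0 (0.00485).

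Glucose-1-phosphate links the pathway to glycogen and glycolysis. Of 13 genes tested around it, 2 fell and 0 rose in naive KO cells, and 5 fell and 0 rose in EpiLC KO cells, with median log2 fold changes of -0.39 and -0.39 beside 0 and 0.000382 over all genes. Of all genes, 4.95% fell and 4.27% rose in naive KO cells, and 7.86% fell and 7.22% rose in EpiLC KO cells, which are the shares to set beside the counts of this and the following lists. Gyg, the glycogenin that primes glycogen, averaged 5.35 ± 1.40 CPM in naive KO and 12.98 ± 2.75 CPM in naive WT (SD, n = 3 each; log2 fold change -1.28 ± 0.253, adjusted p = 0.0086). Pygm, the muscle glycogen phosphorylase, fell by 0.86 ± 0.239 (adjusted p = 0.0423) in naive cells, at 2.24 CPM in KO and 4.04 CPM in WT, and by 1.06 ± 0.239 (adjusted p = 0.0117) in EpiLCs. In EpiLCs the hexokinase gene Hk1 averaged 40.0 ± 1.24 CPM in KO and 80.6 ± 2.52 CPM in WT (-1.01 ± 0.131, adjusted p = 0.000591), and Hk2 176.6 ± 26.2 CPM in KO and 255 ± 5.32 CPM in WT (-0.53 ± 0.0997, adjusted p = 0.00475). The glycogen synthase gene Gys1 fell by 0.92 ± 0.197 (adjusted p = 0.00934) in EpiLCs. The 5th call there, Pygl, the liver glycogen phosphorylase, is named after its value was seen (-1.10 ± 0.32, adjusted p = 0.0364).

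Of 14 genes for the synthesis and transport of UDP-sugars, 1 rose and 1 fell in naive KO cells, and 1 rose and 3 fell in EpiLC KO cells, with medians of 0.05 and 0.06. Gne, the first enzyme of sialic acid synthesis, which starts from UDP-N-acetylglucosamine, averaged 7.67 ± 0.75 CPM in naive KO and 15.0 ± 1.87 CPM in naive WT (-0.96 ± 0.159, adjusted p = 0.0031). In EpiLCs it averaged 15.4 ± 1.76 CPM in KO and 45.9 ± 6.64 CPM in WT (-1.58 ± 0.158, adjusted p = 0.000149). Ugdh, which oxidises UDP-glucose to UDP-glucuronate, fell by 0.57 ± 0.112 (adjusted p = 0.00617) in EpiLCs, and Uap1l1 by 0.47 ± 0.101 (adjusted p = 0.00947). Slc35d1, a nucleotide sugar transporter of the endoplasmic reticulum, rose by 0.61 ± 0.173 (adjusted p = 0.0449) in naive cells and 0.68 ± 0.172 (adjusted p = 0.0199) in EpiLCs.

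Of 18 tested genes of a list of galactosyltransferases, glucosyltransferases and related genes, which also holds Pofut1, whose product uses GDP-fucose, and the chaperone gene C1galt1c1, 1 rose and 1 fell in naive KO cells, and 1 rose and 0 fell in EpiLC KO cells, with medians of -0.01 and 0.13. Uggt2, a glucosyltransferase of glycoprotein folding, rose by 1.57 ± 0.391 (adjusted p = 0.0265) and the galactosyltransferase gene B4galt4 fell by 1.21 ± 0.299 (adjusted p = 0.025) in naive cells. Both were at low levels. Uggt2 averaged 2.26 ± 0.698 CPM in naive KO and 0.763 ± 0.366 CPM in naive WT, and B4galt4 2.18 ± 0.838 CPM and 5.06 ± 1.04 CPM. B4galt2, of the same family, rose by 0.63 ± 0.166 (adjusted p = 0.0238) in EpiLCs. Of 8 genes of galactosidases and related lysosomal proteins, 0 were called in naive cells by edgeR (2 at an unadjusted p under 0.05, 0 by DESeq2) and 1 fell in EpiLCs, with medians of 0.03 and -0.07. That gene was Ctsa, the protective protein of beta-galactosidase (-0.40 ± 0.0852, adjusted p = 0.00841).

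Among 5 tested genes of the GHMP family, to which Galk1 and Galk2 belong, and of other sugar kinases (Mvk, Mvd, Fuk, Nagk and Khk), 2 fell in naive KO cells and 2 in EpiLC KO cells, with medians of -0.27 and -0.26. Fuk, the fucose kinase, averaged 21.8 ± 3.98 CPM in naive KO and 37.6 ± 1.72 CPM in naive WT (-0.79 ± 0.159, adjusted p = 0.00966), and 12.5 ± 2.10 CPM in EpiLC KO and 24.0 ± 2.06 CPM in EpiLC WT (-0.94 ± 0.161, adjusted p = 0.00296). Mvk, the mevalonate kinase, fell by 0.47 ± 0.132 (adjusted p = 0.042) in naive cells. Khk, the fructose kinase, averaged 1.84 ± 0.446 CPM in EpiLC KO and 5.78 ± 0.0989 CPM in EpiLC WT (-1.65 ± 0.315, adjusted p = 0.00515). In the polyol route, by which aldose reductase reduces hexoses, galactose among them, 1 of 4 genes rose in naive KO cells and 0 in EpiLC KO cells in edgeR (2 at an unadjusted p under 0.05, 1 by DESeq2), with medians of 0.43 and 0.10. The gene called in naive cells was Akr1b3, the aldose reductase gene, at 169.1 ± 13.4 CPM in naive KO and 106 ± 8.24 CPM in naive WT (0.67 ± 0.133, adjusted p = 0.0086).

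**Figure D5:**
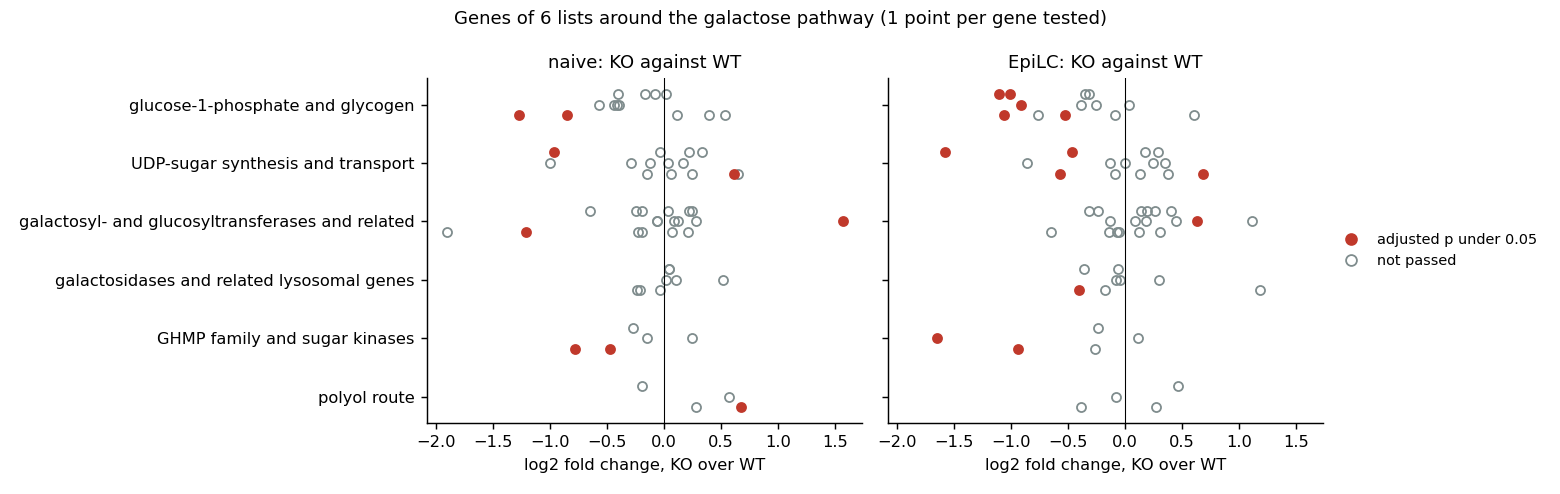
Log2 fold change of KO over WT (horizontal axis) for each tested gene of 6 lists around the pathway (rows), in naive cells at left and EpiLCs at right. Filled points passed an adjusted p of 0.05 and open points did not; the vertical offset within a row only separates points. In the row for glucose-1-phosphate and glycogen all filled points lie below 0 (2 in naive cells, 5 in EpiLCs, the hexokinase genes Hk1 and Hk2 among the latter).

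Of the calls of genes other than the 5, the naive calls of Gyg, Gne, Fuk and Akr1b3 and the EpiLC calls of Gne, Fuk, Khk, Ugdh, Hk1, Hk2 and Gys1 held in all alternatives. The calls of Uap1l1 and Ctsa were lost when only the EpiLC groups were fitted (adjusted p of 0.102 and 0.0601). The others ended without at least 1 library. Over the fits that leave out 1 library, their highest adjusted p in naive cells was 0.213 for Slc35d1, 0.125 for Mvk, 0.125 for Uggt2 and 0.0999 for B4galt4, all without naive KO replicate 1, and 0.135 for Pygm without naive WT replicate 3. In EpiLCs it was 0.075 for Slc35d1, 0.136 for Pygl and 0.0535 for Pygm, all without EpiLC KO replicate 1, and 0.0836 for B4galt2 without EpiLC KO replicate 2.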

How the data were processed

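Polyadenylated RNA of 12 cultures (3 KO and 3 WT clones, naive and EpiLC) was sequenced from stranded libraries, per the labels' protocols. The authors deposited raw counts per gene, made with featureCounts 2.0.1 on GENCODE M25, per the file headers, which show no option for strand, read pairs or shared reads. By the tool's defaults, strand was then ignored and reads on exons of 2 genes were not counted. GRCm38/mm10 and the tools STAR, fastp, FastQC and DESeq2, with no version, are named in the submitters' processing notes. The summed exon length of each gene, also in the deposited table per the file headers, was used for RPKM. Symbols were matched to 55141 of 55487 gene identifiers.

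Counts were scaled by TMM in edgeR 4.0.16 (R 4.3.3). Genes were kept by filterByExpr (minimum count 10, minimum total count 15), which left 18134. A single quasi-likelihood fit took all 12 libraries, which left 8 residual degrees of freedom, and gave 5 contrasts. A gene was called at a Benjamini-Hochberg adjusted p under 0.05 over all genes tested. The SE of a log2 fold change was taken from the change and its F statistic, as |log2 fold change|/√F. The procedure was tested on simulated data. Alternatives were RLE scaling, DESeq2 1.42.0, other filters, blocks, the groups of the contrast alone, and leaving out libraries. In deviations from the group means, naive and EpiLC libraries of 1 genotype with the same number correlated at 0.201 to 0.316 in 6 of 6 pairs, and those with other numbers at 0.0544 or less. The numbers were therefore taken to pair the clones across conditions, and the clone block is given where it changes a call. Across genotypes, same-numbered libraries correlated at -0.316 to 0.0209. Libraries with other numbers, which share no clone, reached 0.363 (EpiLC KO replicate 1 with EpiLC WT replicate 3) and 0.243 (EpiLC KO replicate 3 with EpiLC WT replicate 2). Correlations of this size thus also arise without a shared clone, and the pairing remains an assumption.

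The genes and lists were chosen with earlier results of these data known. Named genes were the 5, Pcbp1, at most 4 called genes per list and KO against WT contrast by adjusted p, neighbours that overlap a member, and the 6 genes most like Galk1. Called neighbours were named after their values were seen. Some genes that these rules name are not reported here.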

Additional observations from a re-analysis of the deposited data

How the results depend on the processing

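Of 305 tested values of the 5 genes under alternatives, 268 kept their direction and their side of the threshold, 10 lost a call, 15 gained one and 12 changed sign, and the cause of these changes was not tested. The fall of Galk1 in naive KO cells ranged from -2.88 to -2.64 (adjusted p at most 0.000567). Its values with EpiLC libraries, given without a test, ran from -2.78 to -2.46 for KO over WT and, for EpiLC over naive, from 1.32 to 1.48 in KO and 1.1 to 1.42 in WT. The naive value of Galt missed the threshold with no filter (-0.43, adjusted p = 0.167), with the replicate number as a block (-0.44, 0.0542), with the naive groups alone (-0.43, 0.0563), without KO replicate 2 in both conditions (-0.46, 0.115), and without each library in turn (-0.51 to -0.41). The EpiLC value of Ugp2 passed with RLE scaling (0.53), no filter (0.51), at least 1 CPM in 3 libraries (0.56), the replicate block (0.55) and DESeq2 (0.53), and ran from 0.36 to 0.69 without single libraries. For EpiLC over naive in WT, Galm passed with no filter (-0.60), the replicate block by number (-0.63) or by clone (-0.62), those groups alone (-0.61) and without KO replicate 2 in both conditions (-0.61), and without single libraries ran from -0.75 to -0.51. Ugp2 passed with the clone block (-0.36) and ran from -0.52 to -0.18. In KO, Galm ran from -0.708 to -0.082. Changes of sign came without single libraries, all in values that did not pass: KO over WT of Galk2 (-0.298 to 0.027 naive, -0.192 to 0.0591 EpiLC) and of Galm in EpiLCs (-0.48 to 0.13), and the difference between the genotype effects of Galk2 (-0.10 to 0.23, and -0.0829 without KO replicate 2 in both conditions) and Galm (-0.10 to 0.54). The count of genes called in naive KO against WT, 1673, was 2516 with DESeq2, 907 without KO replicate 2 in both conditions and 678 to 1744 without single libraries, with the lowest without naive KO replicate 1. The EpiLC count, 2734, was 3547 with DESeq2, 1781 without KO replicate 2 in both conditions and 1375 to 3117 without single libraries, with the lowest without EpiLC KO replicate 1. The count for the difference between the genotype effects, 69, was 564 with no filter, 30 with the replicate block by number, 228 by clone, 509 with DESeq2, 3 to 149 without single libraries, and 0 without KO replicate 2 in both conditions (edgeR, with 1803 genes at an unadjusted p under 0.05). The replicate block by number changed no other call of the 5 genes, nor did the clone block. Of 31 calls named for other genes, 13 held in all alternatives, and 0 changed sign.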

Other observations

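Between culture conditions, the list of galactosidases and related lysosomal genes had the lowest median of those around the pathway. The list also holds Galns, a sulfatase, Neu1, a sialidase, Ctsa, the protective protein, and Lct, the intestinal lactase. Of 8 tested, 6 fell in EpiLCs of each genotype (Glb1, Glb1l, Gla, Galns, Ctsa and Neu1), where 28.1% of all genes fell in KO and 26.3% in WT, with a median log2 fold change of EpiLC over naive of -1.24 in KO and -1.18 in WT, beside -0.04 and -0.01 over all genes. Glb1, the lysosomal beta-galactosidase, averaged 42.6 ± 4.03 CPM in EpiLC KO and 173.4 ± 2.03 CPM in naive KO (-2.02 ± 0.171, edgeR adjusted p = 1.01e-06), and 44.0 ± 13.3 CPM in EpiLC WT and 171.2 ± 14.1 CPM in naive WT (-1.96 ± 0.171, adjusted p = 1.5e-06). Ctsa fell by 2.42 ± 0.0888 in KO (adjusted p = 1.37e-09) and by 2.23 ± 0.0881 in WT (adjusted p = 2.27e-09). Galc, the galactosylceramidase, did not pass in either (adjusted p of 0.203 in KO and 0.626 in WT). Lct was called as risen in KO (1.36 ± 0.398, adjusted p = 0.0112), but at very low levels. It averaged 0.556 ± 0.0941 CPM in EpiLC KO and 0.214 ± 0.0874 CPM in naive KO.

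In the polyol route, Akr1b3 was higher in EpiLCs, at 322.1 ± 50.5 CPM in EpiLC KO and 169.1 ± 13.4 CPM in naive KO (0.93 ± 0.133, edgeR adjusted p = 7.8e-05), and at 266.2 ± 38.3 CPM in EpiLC WT and 106 ± 8.24 CPM in naive WT (1.33 ± 0.135, adjusted p = 5.36e-06). Its relative Akr1b8 rose by 2.77 ± 0.356 in KO (adjusted p = 3.24e-05) and 3.42 ± 0.37 in WT (adjusted p = 9.11e-06). Sord, the sorbitol dehydrogenase, rose in WT (0.69 ± 0.148, adjusted p = 0.00171) and was at 0.02 ± 0.147 in KO (adjusted p = 0.926). The 4th gene, Dcxr, fell in WT (-0.91 ± 0.16, adjusted p = 0.000436) and was at -0.25 ± 0.158 in KO (adjusted p = 0.206). Of the 4, 2 rose and 0 fell in KO, where 27.1% of all genes rose and 28.1% fell. In WT 3 rose and 1 fell, where 26.4% of all genes rose and 26.3% fell. A difference between the effects in KO and WT was called for 0 of the 4 genes in edgeR and in DESeq2, and 2 had an unadjusted p under 0.05.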
